A study of Homo sapiens with 12 samples.

Results

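The miR-183 cluster comprises the neighbouring microRNA (miRNA) precursors mir-183, mir-96 and mir-182 on human chromosome 7. Its members were chosen by name, as every mature arm of these 3 precursors in the miRNA count table, and the cluster itself was selected on its levels over the 4 groups below, which earlier results of these data had shown. Of the 1133 miRNA in the table, 5 are members: hsa-miR-183-5p, hsa-miR-96-5p, hsa-miR-182-5p, hsa-miR-183-3p and hsa-miR-182-3p, with the prefix hsa left out from here on. The 3 members with the suffix 5p carry nearly all counts of the cluster, and the 3p arm of mir-96 is not in the table.

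Small RNA was sequenced from extracellular vesicles (EV) shed into culture medium by the established human induced pluripotent stem cell (hiPSC) line iPS(IMR90)-4 during its differentiation into cardiomyocytes, with 3 preparations from independent cultures in each of 4 groups. hiPSC-EV came from undifferentiated cells at day 0 (24 h in TeSR-E8 expansion medium), CPC-EV from cardiac progenitor cells at day 6 (72 h in RPMI with B27 without insulin), and CMi-EV from immature cardiomyocytes at day 15 (48 h in RPMI with B27). CMm-EV came from more mature cardiomyocytes at day 35, after 48 h in glucose-free RPMI with B27, galactose, oleic acid and palmitic acid. The cells of the last 3 groups had been differentiated through Wnt modulation with CHIR99021, Activin A and IWR1, and the cardiomyocytes had been grown as aggregates, so that the day and the medium change with every stage and cannot be told apart from it. The hours of conditioning also change up to CMi-EV, and the aggregates set CMi-EV apart from CPC-EV, while CMi-EV and CMm-EV share both the hours and the format. All groups derive from a single line, and the replicates are cultures of that line.

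The 3 precursors are cut from a shared primary transcript by DROSHA, and each then gives a duplex of a 5p and a 3p arm, of which Argonaute proteins usually keep the 5p arm. The cluster is best known from the sensory cells of the eye, ear and nose, where its members are among the most abundant miRNA, and it is also expressed in epithelia and in pluripotent stem cells. A miRNA finds its targets mainly through its seed, a short stretch near its 5′ end, so that members with related seeds can share targets.

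The mature sequences of the 5 listed arms show how alike the 3 main members are, and which of them share a seed. All 5 matched an entry of the RefSeq miRNA table for build GRCh38.p14, as did 965 of the 1133 names in the count table. The sequences run 5′ to 3′, and capitals mark the seed, bases 2 to 8.
miR-183-5p: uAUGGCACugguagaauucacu
miR-96-5p: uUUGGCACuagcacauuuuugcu
miR-182-5p: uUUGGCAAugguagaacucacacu
miR-183-3p: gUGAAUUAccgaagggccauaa
miR-182-3p: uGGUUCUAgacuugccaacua

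Among the 965 names with a sequence, 1 further miRNA outside the cluster, miR-1271-5p from chromosome 5, has the seed of miR-96-5p. Names without a sequence could not be searched. miR-1271-5p is shown because the cluster's share of that seed is compared with it.
miR-1271-5p: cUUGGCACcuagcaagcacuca

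The seeds of miR-96-5p and miR-1271-5p are identical over bases 2 to 8, and miR-182-5p shares bases 2 to 7 with both. The seed of miR-183-5p is not shared with another listed miRNA over bases 2 to 7. Counted from 1 at the 5′ end, with the base of the first-named miRNA first, miR-183-5p and miR-182-5p differ within bases 1 to 8 at A2U and C8A, miR-96-5p and miR-182-5p at C8A, and miR-183-5p and miR-96-5p at A2U. miR-96-5p and miR-1271-5p differ there at U1C. Set side by side without gaps, miR-183-5p and miR-182-5p have the same base at 18 of 22 positions, miR-183-5p and miR-96-5p at 13 of 22, and miR-96-5p and miR-182-5p at 12 of 23. miR-96-5p and miR-1271-5p agree at 9 of 22 positions, so that their likeness lies in the seed more than in the rest of the molecule.

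The 3 precursors lie on the minus strand of chromosome 7, with MIR183 at chr7:129774905-129775014, MIR96 at chr7:129774692-129774769 and MIR182 at chr7:129770383-129770492. MIR183 and MIR96 are 135 bases apart, MIR96 and MIR182 are 4199 bases apart, and the cluster spans 4632 bases in all. The annotation puts the 3 hairpins in an intron of a long noncoding RNA gene, ENSG00000286380 (chr7:129763060-129780220, minus strand). The nearest protein-coding genes are NRF1, 13.3 kb away, and UBE2H, 55.7 kb away.

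Levels are miRNA counts scaled to the total miRNA count of a library (CPM) and then by the trimmed mean of M-values (TMM). The miRNA counts behind them, in the order of replicates 1 to 3, were 703415, 2511807 and 5598291 in hiPSC-EV, 1680153, 3380608 and 1539043 in CPC-EV, 2163510, 1686607 and 1364735 in CMi-EV, and 984865, 6272455 and 5072948 in CMm-EV. A count of 0 still allows up to 3 counts, which equals 0.640 CPM in the deepest hiPSC-EV library (hiPSC-EV 3) and 3.64 CPM in CMm-EV 1. Such limits and the intervals below cover counting error only, since PCR reads without molecular identifiers are not independent molecules. Between replicates of a group the counts varied beyond counting error, the chi-square over its degrees of freedom being 43.0 for the closest pair and 654 for the most distant.

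The 5 arms together stood at 47159, 78557 and 114707 CPM in hiPSC-EV, 19608.5, 25107 and 16419 CPM in CPC-EV, 2976, 2468 and 2117 CPM in CMi-EV, and 78.9, 119 and 211 CPM in CMm-EV. All 3 hiPSC-EV libraries were above all CPC-EV libraries, these above all CMi-EV libraries, and these above all CMm-EV libraries. In shares of the miRNA counts, the cluster made up 5.77%, 7.87% and 9.61% in hiPSC-EV, 3.04%, 3.00% and 2.87% in CPC-EV, 0.312%, 0.279% and 0.214% in CMi-EV, and 0.00660%, 0.00713% and 0.0105% in CMm-EV. These are bulk preparations of vesicles, in which fewer cells of a type and less RNA per cell cannot be told apart, nor can a change in what cells hold and in what they release.

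miR-183-5p, the member with a seed of its own, stood at 23490.5, 40313 and 64287 CPM in hiPSC-EV, 10189, 12004.5 and 8158 CPM in CPC-EV, 1474, 1254 and 1029 CPM in CMi-EV, and 48.6, 51.7 and 138 CPM in CMm-EV. The widest gaps between replicates were in the first and last group, where the highest library was 2.74-fold and 2.85-fold above the lowest, and no groups overlapped. Group means were 42697 ± 20502 CPM (SD, n = 3), 10117 ± 1924, 1252 ± 223 and 79.6 ± 51.0 from hiPSC-EV to CMm-EV. miR-183-5p ranked 8, 8 and 6 among all miRNA by level in the hiPSC-EV libraries, 13, 14 and 13 in CPC-EV, 42, 45 and 49 in CMi-EV, and 181, 168 and 115 in CMm-EV. It thus went from among the most abundant vesicle miRNA to lower ranks, 181 of 276 detected miRNA in CMm-EV 1, 168 of 363 in CMm-EV 2 and 115 of 417 in CMm-EV 3.

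miR-182-5p, whose seed differs from that of miR-96-5p in its last base, stood at 22613, 36636 and 48111 CPM in hiPSC-EV, 9104, 12531 and 7863 CPM in CPC-EV, 1459.9, 1161 and 1032 CPM in CMi-EV, and 30.4, 50.6 and 63.5 CPM in CMm-EV. Its order of libraries matched that of miR-183-5p within every group, and again no groups overlapped. Group means were 35786 ± 12770 CPM (SD, n = 3), 9832 ± 2418, 1217 ± 220 and 48.2 ± 16.7 from hiPSC-EV to CMm-EV. In hiPSC-EV, CPC-EV and CMi-EV the means of miR-183-5p and miR-182-5p differed by less than the SD of either, and in CMm-EV by less than the SD of miR-183-5p but more than that of miR-182-5p. Within libraries, miR-183-5p had more counts than miR-182-5p in all but CPC-EV 2 and CMi-EV 3.

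miR-96-5p, the least abundant 5p member, stood at 691, 1117 and 1794 CPM in hiPSC-EV, 225, 379 and 312 CPM in CPC-EV, 41.9, 53.6 and 25.4 CPM in CMi-EV, and 0, 16.2 and 9.07 CPM in CMm-EV. It lay below the other 5p members in every library, though least so in CMm-EV 2 (61 counts beside 195 and 191), with no overlap between groups, and in CMm-EV 1 it had no count, which allows up to 3.64 CPM. Group means were 1201 ± 556 CPM (SD, n = 3), 305 ± 77.5, 40.3 ± 14.2 and 8.42 ± 8.11 from hiPSC-EV to CMm-EV. Its counts in CMm-EV were 0, 61 and 23, so values in that group rest on few reads.

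**Figure D1:**
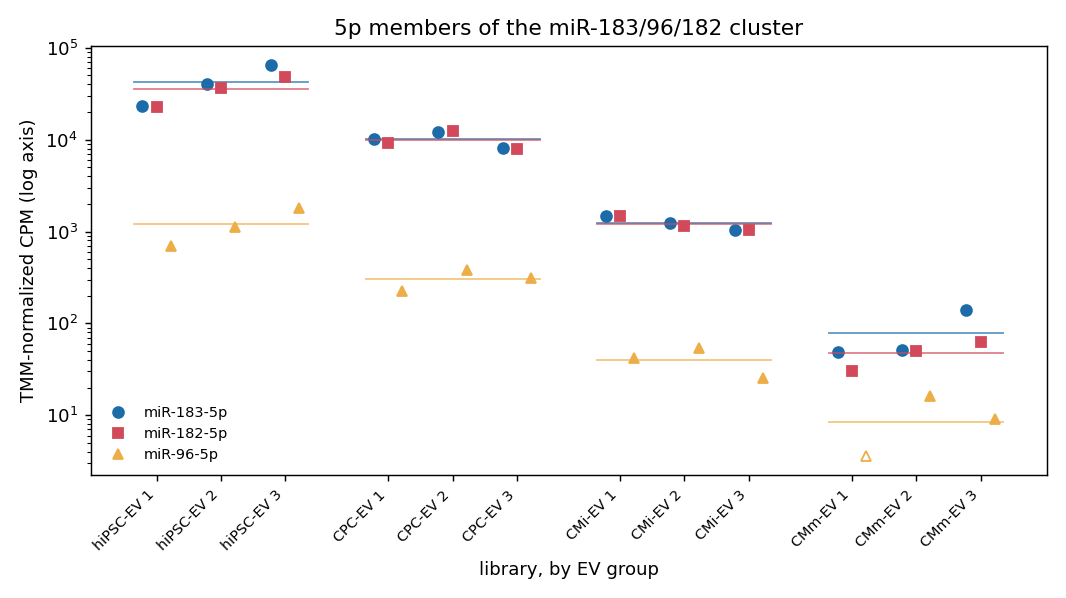
TMM-normalized CPM (log axis) of miR-183-5p, miR-182-5p and miR-96-5p in each of 12 EV libraries, with lines at the group means; the open triangle marks the limit of 3.64 CPM that a count of 0 allows in CMm-EV 1. miR-183-5p and miR-182-5p lie close together in hiPSC-EV, CPC-EV and CMi-EV, and each member steps down from group to group.

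The 3p arms were rare. miR-183-3p, the partner strand of miR-183-5p, stood at 348, 479 and 504 CPM in hiPSC-EV, 90.2, 179 and 86.2 CPM in CPC-EV, 0, 0 and 31.2 CPM in CMi-EV, and had no count in CMm-EV. The groups did not overlap as far as CMi-EV, where 1 library (CMi-EV 3) held all 43 counts. miR-182-3p was at 16.3, 12.7 and 10.2 CPM in hiPSC-EV, at 0, 13.6 and 0 CPM in CPC-EV, and had no count in the 6 cardiomyocyte libraries. Its hiPSC-EV and CPC-EV values overlapped through CPC-EV 2.

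The size of each step was estimated with edgeR on the whole miRNA table, as log2 fold changes with their standard errors (SE), and with no test for the members, since they were selected on these groups. Between neighbouring stages, the question was when along the differentiation the vesicle levels differ. The 4 comparisons share libraries, so they are not independent. From hiPSC-EV to CPC-EV, the log2 fold change was -1.64 (SE 0.30) for miR-183-5p, -1.44 (SE 0.25) for miR-182-5p and -1.54 (SE 0.34) for miR-96-5p, and the sum of the cluster gave -1.50 (SE 0.31). These 3 values lay within each other's errors, and miR-183-3p was close to them, with -1.51 (SE 0.35). For miR-182-3p the value was -1.23 (SE 1.72), with overlapping groups. Without overlap, 4 of the 5 arms were lower in CPC-EV, as were 28.4% of the 338 miRNA tested, and nothing is read from the members' count because they were chosen for it.

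From CPC-EV to CMi-EV, the values were larger and closer still, with -3.01 (SE 0.23) for miR-183-5p, -3.00 (SE 0.24) for miR-182-5p, -2.91 (SE 0.43) for miR-96-5p and -3.02 (SE 0.23) for the sum. miR-183-3p gave -3.59 with an SE of 1.81, and miR-182-3p was below the filter of 5 CPM in each library of a group. The 4 arms that passed the filter were lower in CMi-EV without overlap, as were 27.7% of 292 miRNA. All 3 main members thus had a wider gap here than in the step before.

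From CMi-EV to CMm-EV, the members' values lay further apart. The log2 fold change was -4.11 (SE 0.47) for miR-183-5p, -4.80 (SE 0.35) for miR-182-5p and -2.34 (SE 1.22) for miR-96-5p, and the sum gave -4.38 (SE 0.37). The smaller value of miR-96-5p has the widest SE and rests on 84 counts in CMm-EV, and the difference between members was not tested. Both 3p arms were below the filter, and the 3 arms that passed it were lower in CMm-EV without overlap, as were 28.3% of 247 miRNA.

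Across the whole course, from hiPSC-EV to CMm-EV, the log2 fold change was -9.42 (SE 0.54) for miR-183-5p, -9.86 (SE 0.41) for miR-182-5p, -7.36 (SE 0.92) for miR-96-5p and -9.54 (SE 0.47) for the sum. Against 3 counts per library in CMm-EV, miR-183-3p was at least 290-fold lower and miR-182-3p at least 8.36-fold lower. All 5 arms were lower in CMm-EV without overlap, as were 50.3% of 336 miRNA, and again nothing is read from that. The median log2 fold change over all tested miRNA was -0.27, -0.05 and -0.30 for the 3 steps and -1.53 for the whole course.

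The make-up of the cluster was followed through the share of each member in the summed counts of a library. miR-183-5p made up 49.8%, 51.3% and 56.0% in hiPSC-EV, 52.0%, 47.8% and 49.7% in CPC-EV, 49.5%, 50.8% and 48.6% in CMi-EV, and 61.5%, 43.6% and 65.6% in CMm-EV. The share spanned a wider range in CMm-EV than in the other groups, with libraries of 65, 447 and 535 counts of the cluster and exact Clopper-Pearson 95% intervals of 48.6% to 73.3%, 39.0% to 48.4% and 61.4% to 69.6%. That of CMm-EV 2 does not meet those of CMm-EV 1 and CMm-EV 3, so these replicates differed beyond counting error. The intervals did not meet for any pair of hiPSC-EV or of CPC-EV libraries either, while those of CMi-EV did. The ratio of miR-183-5p to miR-182-5p counts was between 0.958 and 1.34 in the 9 libraries of hiPSC-EV, CPC-EV and CMi-EV, and 1.60, 1.02 and 2.18 in CMm-EV. Shares compare reads, which need not be in proportion to molecules of different miRNA.

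miR-96-5p held a low share, 1.46%, 1.42% and 1.56% in hiPSC-EV, 1.15%, 1.51% and 1.90% in CPC-EV, and 1.41%, 2.17% and 1.20% in CMi-EV. Intervals of replicates did not meet for hiPSC-EV 2 and hiPSC-EV 3, for any pair of CPC-EV libraries, or for CMi-EV 2 beside both other CMi-EV libraries, so the share differed beyond counting error within these groups too. While the summed cluster averaged 80141, 20378 and 2520.3 CPM in these groups, the mean share was 1.48% ± 0.0731 (SD, n = 3), 1.52% ± 0.378 and 1.59% ± 0.511. In CMm-EV it was 0 of 65 counts, which allows a share of up to 4.62%, then 61 of 447, or 13.6% (exact 95% interval 10.6% to 17.2%), and 23 of 535, or 4.30% (2.74% to 6.38%). The intervals of CMm-EV 2 and CMm-EV 3 lie above all 9 earlier libraries and apart from each other, so the difference between these replicates exceeds counting error. The limit in CMm-EV 1 lies below the share in CMm-EV 2 and allows that in CMm-EV 3.

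**Figure D2:**
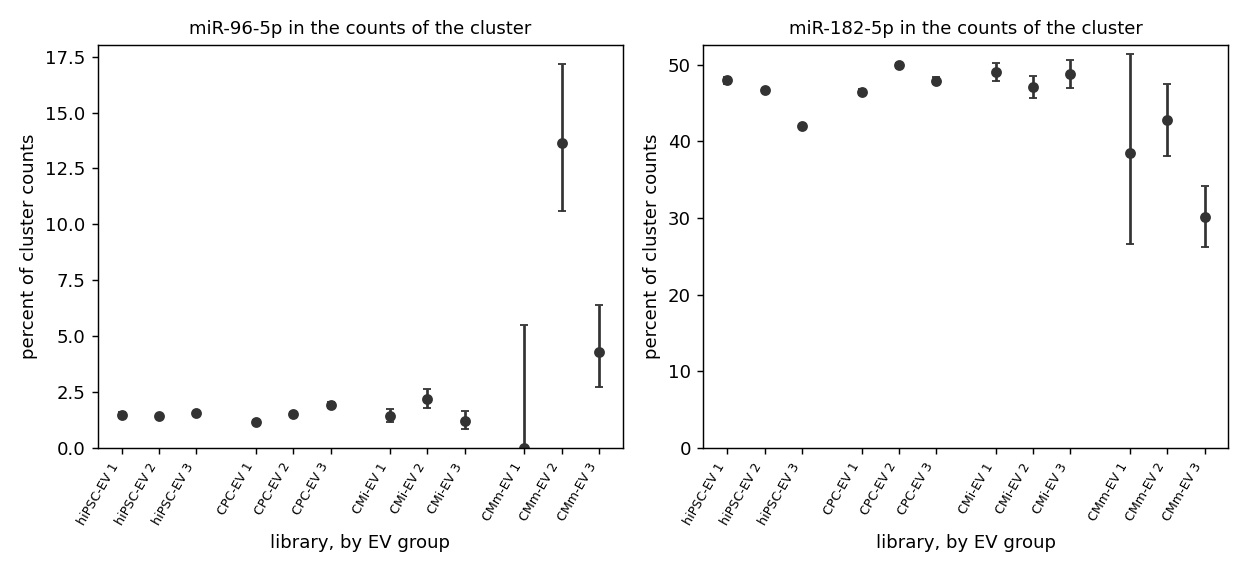
Share of miR-96-5p (left) and of miR-182-5p (right) in the summed counts of the cluster in each of the 12 libraries, in percent, with exact 95% intervals for counting error. The share of miR-96-5p lies between 1.15% and 2.17% up to CMi-EV, and in CMm-EV it reads 0%, 13.6% and 4.30% with wide intervals.

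The balance of arms was measured within a precursor, so that it does not depend on scaling. Of the counts on mir-183, the 3p arm made up 1.46%, 1.17% and 0.778% in hiPSC-EV and 0.877%, 1.47% and 1.05% in CPC-EV. These groups overlapped. In CMi-EV it had 0 of 3343 and 0 of 2388 counts, which allow shares of up to 0.0897% and 0.126%, and 43 of 1463, or 2.94% (exact 95% interval 2.14% to 3.94%). The CMi-EV libraries thus lay on both sides of the earlier range, and CMi-EV 3 decided the group's mean. In CMm-EV there were 0 of 40, 0 of 195 and 0 of 351 counts, which allow up to 7.50%, 1.54% and 0.855%, so a share lower than that of hiPSC-EV was not detectable in CMm-EV 1 and CMm-EV 2, and the limit in CMm-EV 3 lies below 2 of the 3 hiPSC-EV libraries. For mir-182, the 3p arm made up between 0.0213% and 0.0718% in hiPSC-EV, and 0.109% in CPC-EV 2 beside none in the other CPC-EV libraries.

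The seed that miR-96-5p shares with miR-1271-5p allowed a comparison the choice of members did not use. miR-1271-5p stood at 773, 689 and 826 CPM in hiPSC-EV, 522, 319 and 516 CPM in CPC-EV, 1358, 1242 and 761 CPM in CMi-EV, and 924, 858 and 1172 CPM in CMm-EV. The CPC-EV libraries were lowest, those of CMi-EV and CMm-EV overlapped, and on this scale over 12 libraries CMm-EV lay above hiPSC-EV. Each pair of stages was then tested with edgeR over all miRNA that passed the filter, where a call needs an adjusted p (FDR) of at most 0.05 and a log2 fold change of 1 or more, or of -1 or less. By that rule 27.5% of 338 miRNA were called for CPC-EV against hiPSC-EV, 28.4% of 292 for CMi-EV against CPC-EV, 16.6% of 247 for CMm-EV against CMi-EV, and 53.6% of 336 for CMm-EV against hiPSC-EV.

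miR-1271-5p was not called for CPC-EV against hiPSC-EV, with a log2 fold change of -0.32 (SE 0.31, FDR 0.523). From CPC-EV to CMi-EV it was called higher, with 1.30 (SE 0.35, FDR 0.0311) and all 3 CMi-EV libraries above all CPC-EV libraries. That call rested on single libraries and on the scaling, with an FDR of 0.0579 without CPC-EV 2, 0.0618 without CPC-EV 3, 0.103 without CMi-EV 1, 0.0795 without CMi-EV 2 and 0.214 with library size as the only scaling (0.78), although the direction held in each. From CMi-EV to CMm-EV it gave -0.35 (SE 0.29, FDR 0.466) and over the whole course 0.06 (SE 0.31, FDR 0.877), neither of them called. When scaled over the 6 libraries of a comparison alone, hiPSC-EV and CMm-EV overlapped, and so did hiPSC-EV and CPC-EV, with means of 810.2 and 649 CPM. In the step where the 3 main members had log2 fold changes near -3, the miRNA with the seed of miR-96-5p thus went the other way, and the difference between them was not tested.

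Counted together, the pair with this seed spanned a narrower range than miR-96-5p alone, as adding the steadier miR-1271-5p brings about. The sums and shares here and in the pool below contain the members' own counts, on which the cluster was selected, so they are a description. The summed level of miR-96-5p and miR-1271-5p was 1464, 1806 and 2621 CPM in hiPSC-EV, 747, 699 and 828 CPM in CPC-EV, 1399.9, 1296 and 786 CPM in CMi-EV, and 924, 874 and 1181 CPM in CMm-EV. The hiPSC-EV libraries were highest, and the CPC-EV and CMm-EV libraries overlapped with part of CMi-EV. miR-96-5p made up 47.2%, 61.9% and 68.5% of the pair's counts in hiPSC-EV, 30.1%, 54.3% and 37.7% in CPC-EV, and 2.99%, 4.13% and 3.23% in CMi-EV. In CMm-EV it made up 0 of 761 counts, which allows up to 0.394%, then 1.85% and 0.768%. The exact 95% interval for hiPSC-EV 1 was 44.4% to 50.0% and that for CPC-EV 2 was 52.5% to 56.2%, so these groups overlapped, while all CMi-EV and CMm-EV libraries lay far below.

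With miR-182-5p added, which shares bases 2 to 7, miR-1271-5p was a small part of the pool at the start. It made up 3.21%, 1.79% and 1.63% of the summed level of these 3 miRNA in hiPSC-EV, 5.30%, 2.41% and 5.93% in CPC-EV, 47.5%, 50.6% and 41.8% in CMi-EV, and 96.8%, 92.8% and 94.2% in CMm-EV. The pool itself went from 24077, 38441 and 50731 CPM in hiPSC-EV to 954, 924 and 1244 CPM in CMm-EV. Among these 3 miRNA, counts thus came mostly from the cluster in hiPSC-EV and mostly from miR-1271-5p in CMm-EV.

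**Figure D3:**
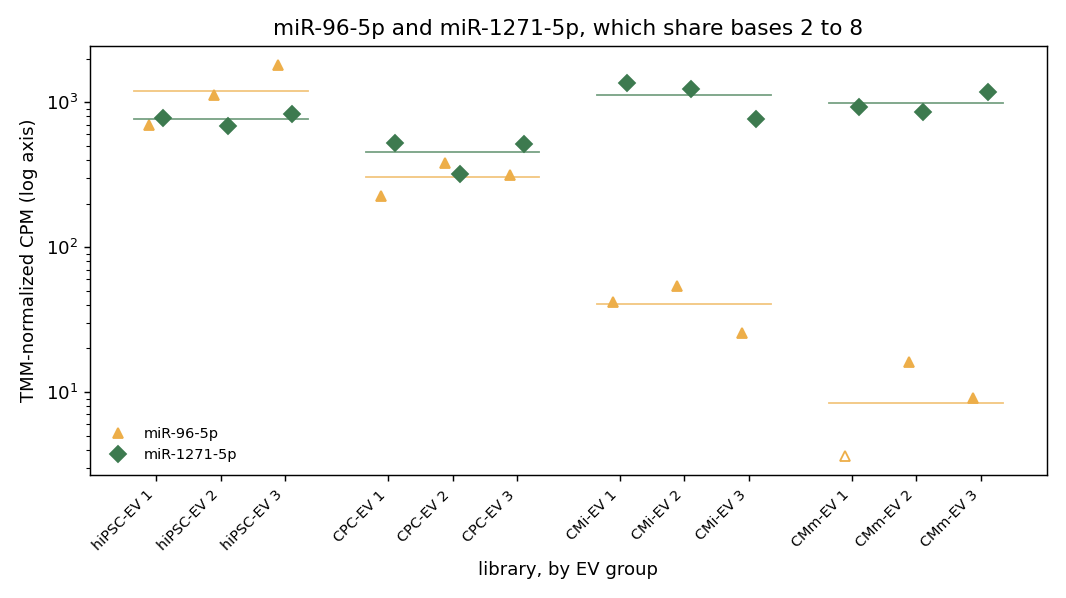
TMM-normalized CPM (log axis) of miR-96-5p and miR-1271-5p, which share bases 2 to 8, in each of the 12 libraries, with lines at the group means; the open triangle marks the limit that a count of 0 allows. The 2 miRNA lie within a few fold of each other in hiPSC-EV and CPC-EV and far apart in CMi-EV and CMm-EV, where miR-1271-5p stands between 761 and 1358 CPM.

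Position was the next feature that the choice of members did not use. Within 2 Mb of the cluster, the table lists 5 further miRNA, from mir-335 (721 kb away on the plus strand), mir-29a and mir-29b-1 (1102 kb) and mir-129-1 (1562 kb). miR-335-3p, whose precursor lies in an intron of the imprinted gene MEST, is the most abundant of them and stood at 7319.7, 7816 and 6201 CPM in hiPSC-EV, 1850.1, 2502 and 1792 CPM in CPC-EV, 549.8, 983 and 1408 CPM in CMi-EV, and 231, 219.6 and 289 CPM in CMm-EV. Like the cluster, it had no overlap between any of the neighbouring stages, but its steps were smaller after CPC-EV.

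miR-335-3p was called lower from hiPSC-EV to CPC-EV, with a log2 fold change of -1.40 (SE 0.19, FDR 0.00184), from CMi-EV to CMm-EV, with -2.15 (SE 0.37, FDR 0.0125), and over the whole course, with -5.15 (SE 0.26, FDR 2.87e-05), each time in 3 of 3 libraries. The middle step was -1.09 (SE 0.30, FDR 0.0332), and its call was lost with median-of-ratios scaling (FDR 0.0632), without CPC-EV 1 (0.120), CPC-EV 2 (0.195), CPC-EV 3 (0.0754) or CMi-EV 2 (0.0897), and without CMi-EV 1, where the log2 fold change was -0.84. The last step missed the threshold without CMm-EV 2 (FDR 0.0541). The cluster and miR-335-3p thus had steps of like size from hiPSC-EV to CPC-EV, and whether their later steps differ was not tested.

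The other arm of that precursor, miR-335-5p, lay between 2.39 and 357 CPM and was not called, with log2 fold changes of -0.57 (FDR 0.353), 0.74 (FDR 0.276), -2.32 (FDR 0.240) and -2.76 (FDR 0.0753) in the same order of comparisons. Over the whole course it was called lower with library size only, without a filter, with DESeq2 and without CMm-EV 3 (-3.76, FDR 0.0374), and from CMi-EV to CMm-EV without a filter (FDR 0.0283). miR-29a-3p stood at 80.1, 60.4 and 105 CPM in hiPSC-EV, 15.7, 47.1 and 0 CPM in CPC-EV, 0.441, 0 and 0 CPM in CMi-EV, and 0, 13.3 and 18.1 CPM in CMm-EV, and missed the threshold from hiPSC-EV to CPC-EV (FDR 0.462) and over the whole course, with -3.25 (SE 1.13, FDR 0.0559). Without CMm-EV 1 it was called lower over the course (-2.42, FDR 0.0146), as it was with library size only, without a filter and with DESeq2. miR-29b-3p and miR-129-1-3p were too rare to be tested, with at most 4 and 24 counts in a library.

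**Figure D4:**
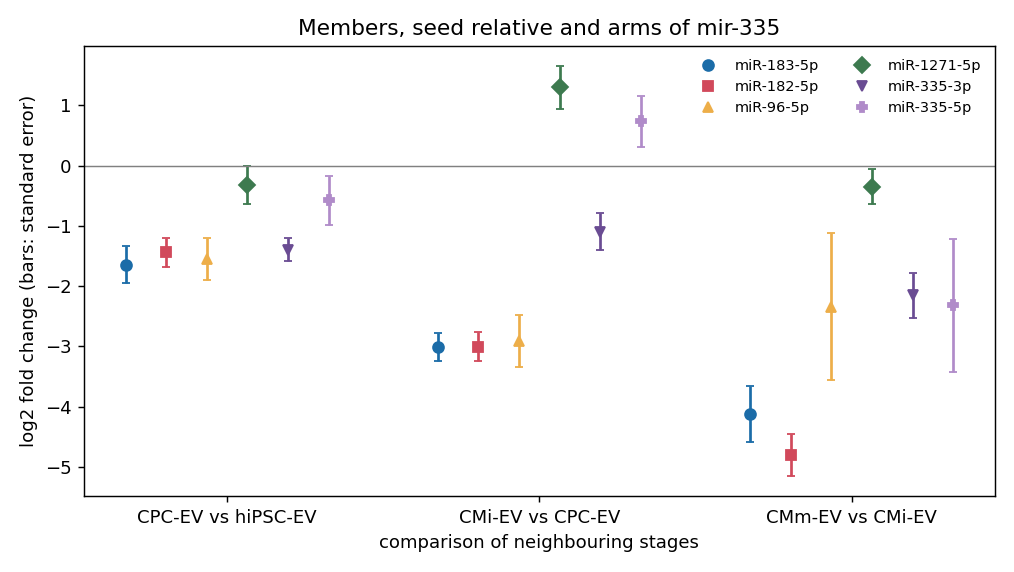
Log2 fold changes between neighbouring stages for the 3 main members of the cluster, miR-1271-5p and both arms of mir-335, with bars for the standard error; the members' values are a description with no test. The members lie near -1.5 and -3 in the first 2 steps and spread between -4.80 and -2.34 in the last, while miR-1271-5p lies above 0 from CPC-EV to CMi-EV.

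The likeness of every other expressed miRNA to the summed cluster was measured as Pearson's r of log2(CPM + 1) across the 12 libraries, over 362 miRNA and as a description, since the libraries share groups and depth. The 6 highest were miR-302c-5p (0.988), miR-92a-3p (0.986), miR-200c-3p (0.986), miR-363-3p (0.980), miR-302b-3p (0.978) and miR-302a-5p (0.978). A high r did not mean equal steps: from hiPSC-EV to CPC-EV, miR-302a-5p (log2 fold change 0.29, SE 0.40, FDR 0.662) and miR-92a-3p (-0.09, SE 0.14, FDR 0.677) were not called. Both overlapped when scaled over the 6 libraries of that comparison, while over all 12 libraries miR-92a-3p was lower in CPC-EV without overlap, and over the whole course miR-92a-3p had -3.07 (SE 0.22) beside -9.54 for the summed cluster. The 6 come from several loci, with none from the neighbourhood of the cluster, and miR-335-3p followed at rank 10 (0.960). Of these 6 names, 5 were again among the 6 highest with a pseudocount of 0.1, 4 with library size as the only scaling and 2 with Spearman's rho. miR-1271-5p, despite the shared seed, ranked 282 with an r of -0.487.

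Lists of marker miRNA show what else moved with the cluster, and their part in its levels was not tested. The 8 pluripotency miRNA, led by miR-302b-3p, summed to 172747, 179136 and 211958 CPM in hiPSC-EV, 71714, 80056 and 49649 CPM in CPC-EV, 5563, 6831 and 4080.1 CPM in CMi-EV, and 305, 133 and 110.0 CPM in CMm-EV. This sum had no overlap between neighbouring stages, and miR-302b-3p made up between 67.0% and 96.8% of it. Other members did not follow it from hiPSC-EV to CPC-EV, where miR-302a-3p, miR-302d-3p, miR-371a-5p, miR-372-3p and miR-373-3p overlapped, miR-371a-5p with 677, 1110.05 and 1568 CPM, then 1046, 1252 and 1026 CPM. Of the members tested in edgeR, 2 of 8, 5 of 8, 3 of 5 and 7 of 7 were called lower in the same order of comparisons, beside 16.0%, 14.0%, 10.1% and 37.5% of all tested miRNA called lower and 11.5%, 14.4%, 6.48% and 16.1% called higher. Whether this or any list below exceeds these shares was not tested. Some members, such as miR-367-3p over the course, passed the filter only through the group where they are high. Such a member could hardly be called in the other direction, here and in the lists below, so nothing is read from these counts of calls. In CMm-EV miR-367-3p, miR-372-3p and miR-373-3p had no count. They stood at no more than 260 CPM in any hiPSC-EV library, so a fall as large as that of miR-302b-3p could also leave them without a count.

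The cluster is known from epithelia, and the 7 epithelial miRNA, led by miR-200b-3p, summed to 6059, 7472 and 9938 CPM in hiPSC-EV, 7418, 9132 and 5264 CPM in CPC-EV, 529, 659 and 561 CPM in CMi-EV, and 8.50, 13.0 and 22.1 CPM in CMm-EV. The sum of this list differs from that of the cluster in the first step, where its groups overlapped, but miR-200b-3p weighed on it unevenly. That miRNA made up between 29.4% and 42.2% of the sum in hiPSC-EV and between 63.8% and 73.5% in CPC-EV. Of 5 tested members, 1 was called higher (miR-200b-3p) and 1 lower (miR-200c-3p). By level, miR-200c-3p and miR-141-3p were lower in CPC-EV without overlap, miR-200b-3p was higher, and the other members overlapped. In the later steps and over the course, 3 of 5, 2 of 3 and 5 of 5 were called lower. These are to be read against the shares of all tested miRNA and the limit of the filter above. In CMm-EV, miR-200a-3p, miR-203a-3p and miR-429 had no count, while the cluster was still counted in each of these libraries. These miRNA were far rarer from the start, with no more than 134 CPM in any hiPSC-EV library, beside at least 47159 CPM for the summed cluster. A fall as large as that of the cluster could also leave them without a count, so this contrast shows no difference in their fall. miR-429 had no count in CMi-EV either.

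The sensory organs give the cluster its best known role, and the 8 neural and sensory miRNA, led by miR-128-3p, summed to 2933, 3389.8 and 4133 CPM in hiPSC-EV, 1619, 1631 and 1831 CPM in CPC-EV, 1362, 2088 and 1685 CPM in CMi-EV, and 1917, 1828 and 1677 CPM in CMm-EV. From CPC-EV on, miR-128-3p made up most of this sum, between 60.6% and 99.4%, so that the sum says little of the other members. The members did not move alike. miR-204-5p was lower at each stage without overlap, but its last step was not called (-1.36, SE 0.85, FDR 0.336), and miR-9-3p overlapped between hiPSC-EV (0, 30.6 and 48.8 CPM) and CPC-EV (77.5, 33.7 and 57.6 CPM). For miR-128-3p, scaled over these 6 libraries alone, all CMi-EV libraries lay above all CPC-EV libraries, with no call (0.44, SE 0.21, FDR 0.189). Called lower were 2 of 6, 2 of 6, 1 of 4 and 4 of 5, again beside the shares above, and the defining miR-124-3p, miR-9-5p, miR-9-3p, miR-211-5p and miR-219a-5p had no count in CMm-EV. Of these, miR-211-5p had counts in 3 of the 12 libraries and miR-219a-5p 2 counts in a single one, so that their absence from CMm-EV shows no change.

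The 6 cardiomyocyte miRNA, led by miR-1-3p, ran against the cluster, with 65.0, 46.5 and 69.3 CPM in hiPSC-EV, 757, 858 and 1519 CPM in CPC-EV, 52630.5, 75603 and 20795 CPM in CMi-EV, and 37819.5, 51436 and 208375 CPM in CMm-EV. Called higher were 2 of 2, 4 of 4 and, over the course, 6 of 6. The limit of the filter holds here too, since miR-208b-3p, without a count in hiPSC-EV, passed it over the course through CMm-EV alone. From CMi-EV to CMm-EV, where the summed cluster had its widest step, edgeR called 0 of 6, with 0 at an unadjusted p under 0.05 and 0 by DESeq2. Scaled over these libraries alone, miR-499a-5p (log2 fold change 3.22, SE 1.46) and miR-208b-3p (2.77, SE 1.82) were higher in CMm-EV without overlap. The other members overlapped on that scale. All 6 had counts in every CMm-EV library, while miR-208b-3p and miR-499a-5p had no count in CPC-EV, and 0, 0 and 51 and 0, 26 and 129 counts in CMi-EV.

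The lists for endoderm, endothelium and blood follow, and no test compared the lists with each other. The 4 endoderm miRNA, led by miR-192-5p, summed to between 1302 and 2251 CPM in hiPSC-EV, 6304 and 8865 CPM in CPC-EV, 3470.0 and 7218 CPM in CMi-EV, and 2243 and 4459 CPM in CMm-EV, with 3 of 4 called higher, then 1 of 4 lower, 1 of 4 lower and, over the course, 1 of 4 higher. The 2 endothelial miRNA, led by miR-126-3p, summed to at most 115 CPM in any library, and edgeR called 0 of 2, 0 of 2 and 0 of 1 in the 3 steps, with 0 at an unadjusted p under 0.05 and 0 by DESeq2, and 1 of 2 lower over the course. Of 5 blood miRNA, 4 are in the table, and miR-486-5p, the most abundant and the sole tested member, was called lower for CPC-EV against hiPSC-EV and over the course (-3.40, SE 0.31, FDR 0.000283). In the steps between them edgeR called 0 of 1 each, with 0 and 1 at an unadjusted p under 0.05 and 0 by DESeq2, while the sum of the blood list lay between 5307 and 8684 CPM in hiPSC-EV, between 728 and 2082 CPM in CPC-EV and CMi-EV, and between 771 and 875 CPM in CMm-EV.

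**Figure D5:**
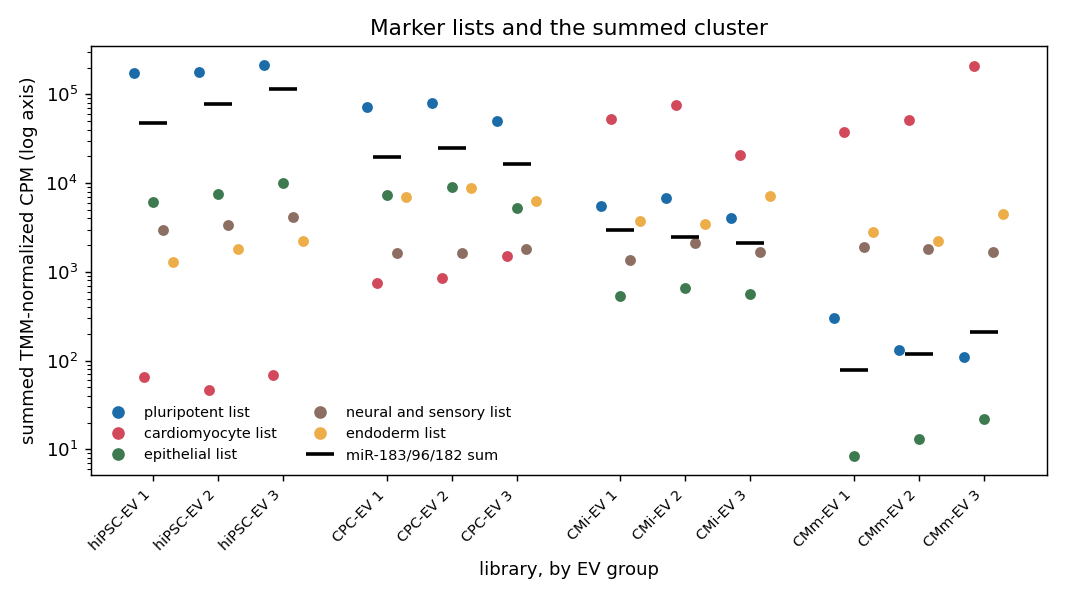
Summed TMM-normalized CPM (log axis) of 5 lists of marker miRNA (points) and of the miR-183 cluster (black bars) in each of the 12 libraries. The sum of the pluripotent list, most of it miR-302b-3p, steps down at every stage as the cluster does, while the cardiomyocyte list is highest in CMi-EV and CMm-EV.

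Fragments of messenger and long noncoding RNA in the same libraries, the gencode transcripts, are a readout that the choice of members did not use, but a shallow one. Their totals ran from 131183 counts in CMm-EV 1 to 1908089 in hiPSC-EV 3, so that the filter of 5 CPM equals only 0.656 to 9.54 counts, and on simulated data of this depth the test made more false calls than its nominal 5%. For CPC-EV against hiPSC-EV 11.0% of 3056 transcripts were called and for CMm-EV against hiPSC-EV 50.8% of 2153. With filterByExpr of edgeR in place of that filter, 0 of 3117 were called in the former (371 at an unadjusted p under 0.05, and 683 by DESeq2 with the 5 CPM filter) and 153 of 838 in the latter. Calls in this class are therefore given as values that support nothing.

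Among known targets of the members, EZR and ITGB1 had transcript entries that passed the filter in both comparisons. EZR, which ties the membrane to the cytoskeleton, had between 146 and 228 protein-coding counts in the hiPSC-EV libraries, 119, 257 and 0 in CPC-EV, 65, 172 and 55 in CMi-EV, and 40, 62 and 23 in CMm-EV. Scaled over the libraries of each comparison, EZR was lower without overlap in both, with means of 336 and 85.3 CPM for hiPSC-EV and CPC-EV, and of 316 and 131 CPM for hiPSC-EV and CMm-EV. That separation depended on the scaling, since by library size alone the groups overlapped in both comparisons. In hiPSC-EV 3, EZR had at most 228 of 1908089 counts, beside 257 of 1313888 in CPC-EV 2 and 40 of 131183 in CMm-EV 1. EZR was not called by edgeR for CPC-EV against hiPSC-EV (log2 fold change -1.97, SE 1.26, FDR 0.392) or for CMm-EV against hiPSC-EV (-1.27, SE 0.78, FDR 0.221), and its processed transcript was called lower by DESeq2 in the latter (FDR 0.0238) and not by edgeR (FDR 0.0990). ITGB1, an integrin subunit that binds cells to their matrix, had 32, 50 and 88 protein-coding counts in hiPSC-EV and 0, 0 and 18 in CMm-EV. Scaled over the libraries of each comparison, ITGB1 too was lower without overlap in both. Its means were 91.6 and 12.9 CPM for hiPSC-EV and CPC-EV, and 88.2 and 21.5 CPM for hiPSC-EV and CMm-EV. It was not called by edgeR in either comparison (FDR 0.347 and 0.342).

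The genes that make and hold miRNA were as shallow. Of DROSHA, DGCR8, XPO5, DICER1 and AGO2, 4 transcript entries were tested for CPC-EV against hiPSC-EV, where edgeR called 0, with 0 at an unadjusted p under 0.05 and 0 by DESeq2. AGO2, the Argonaute that carries mature miRNA, had 29, 13 and 86 counts in hiPSC-EV and no count in CMm-EV, at least 6.43-fold lower (FDR 0.00918). DROSHA, which cuts the primary transcript, had 13, 44 and 45 protein-coding counts in hiPSC-EV and 0, 0 and 1 in CMm-EV (log2 fold change -5.27, SE 1.58, FDR 0.0110), and its processed transcript, with no count in CMm-EV, was called lower (FDR 0.00926) although the limit that counts of 0 allow leaves it at least 1.02-fold lower, close to no change. The regulators ZEB1 and CTNNB1 and the flanking genes NRF1 and UBE2H were below the filter in both comparisons, and the table has no entry for MIR183, MIR96 or MIR182, so the primary transcript of the cluster could not be followed.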

How the data were processed

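The authors sequenced small RNA from 12 EV preparations and deposited expected counts per miRNA and gencode transcript from the exceRpt pipeline, together with RPM values scaled to library totals. Counts were rounded to whole numbers, which changed 1 value each of miR-183-5p and miR-182-5p, and the prefix hsa was left out of names. A feature was kept where all 3 libraries of either group in a comparison had 5 CPM or more, TMM factors were taken from these features, and the 6 libraries of each pair of groups were tested with the two-sided quasi-likelihood test of edgeR 4.0.16 in R 4.3.3, adjusted after Benjamini and Hochberg over all features tested. TMM factors for levels over the 12 libraries, from 367 expressed miRNA, ran from 0.500 (CMm-EV 3) to 1.75 (CPC-EV 3). TMM factors from all features were run first. The order of filter and TMM was then changed to that of an earlier processing of these tables, and the first version was kept as an alternative, chosen after seeing the data.

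Named were all arms of the 3 precursors, miRNA that share bases 2 to 7 with a 5p member, miRNA within 2 Mb, the 6 miRNA most like the summed cluster, genes from fixed lists of targets, regulators and miRNA biogenesis, flanking genes, and of each marker list (pluripotent, cardiomyocyte, neural and sensory, epithelial, endoderm, endothelial, blood) the most abundant member and those without counts. Outside that rule, miR-302a-3p, miR-302d-3p, miR-371a-5p, miR-204-5p and miR-141-3p were named after their values were seen, to show how members departed from the sum of their list. The members and lists were chosen with earlier results of these data known. Alternatives were median-of-ratios scaling, library size only, no filter, filterByExpr, DESeq2 1.42.0, the authors' RPM, a replicate block, and leaving out single libraries. The test was tried on simulated data, where it made slightly more false calls than its nominal rate for miRNA of CMm-EV against hiPSC-EV. Only the miRNA and gencode tables were used. Coordinates are those of hg38.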

Additional observations from a re-analysis of the deposited data

How the results depend on the processing

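The summed cluster was lower in the later group of each comparison under every alternative run. Leaving out each library in turn gave log2 fold changes from -1.76 to -1.24 for CPC-EV against hiPSC-EV, -3.22 to -2.84 for CMi-EV against CPC-EV, -4.85 to -4.05 for CMm-EV against CMi-EV and -9.91 to -8.96 over the whole course. With library size only, the value for CMi-EV against CPC-EV was -3.47 in place of -3.02, and the cause was not tested. That scaling moved the median over all tested miRNA from -0.27 to -0.10, -0.05 to -0.52, -0.30 to -0.91 and -1.53 to -1.97 in the order of comparisons. The mean likeness of the 6 named miRNA went from 0.983 to 0.976 with a pseudocount of 0.1 and 0.966 with Spearman's rho.

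Counts of called miRNA without each library in turn ran from 75 to 129 for CPC-EV against hiPSC-EV (93 with all), 72 to 102 for CMi-EV against CPC-EV (83), 20 to 60 for CMm-EV against CMi-EV (41) and 153 to 217 over the course (180). The lowest count for CMm-EV against CMi-EV, 20, came without CMm-EV 2, and filterByExpr gave 27 there. TMM factors from all features, chosen after seeing the data, gave 86, 84, 42 and 183 miRNA, and 305 and 1162 gencode transcripts. With library size only, the calls were 31 higher and 56 lower for CMi-EV against CPC-EV (42 and 41 in the reported fit) and 10 and 42 for CMm-EV against CMi-EV (16 and 25).

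Gencode counts depended on the processing most. For CPC-EV against hiPSC-EV the 337 calls of edgeR became 518 with library size only (351 higher and 167 lower, against 136 and 201), 62 without a filter, 0 with filterByExpr (371 at an unadjusted p under 0.05) and 683 with DESeq2. Without single libraries they ran from 0 to 660, with 0 without hiPSC-EV 3 or CPC-EV 3 (782 and 997 at an unadjusted p under 0.05), 159 without hiPSC-EV 2 and 660 without hiPSC-EV 1. For CMm-EV against hiPSC-EV the 1093 calls became 68 without a filter and 153 with filterByExpr, and ran from 1285 to 2262 without single libraries, the highest without hiPSC-EV 1. The cause was not tested, for the filters either. For CPC-EV against hiPSC-EV, 3117 transcripts were tested with filterByExpr and 31338 without a filter, in place of 3056.

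With the replicate number as a replicate block, the called miRNA were 39, 69, 17 and 137 in the order of comparisons, and the called gencode transcripts 0 (592 at an unadjusted p under 0.05) and 909. The libraries share only a number: over 18 pairs of libraries with the same number, the r of deviations from group means averaged 0.00490 and ran from -0.121 to 0.0989. Of the single miRNA and shares, 326 values under an alternative kept their side of the threshold or stayed within the spread of replicates, 12 called values lost their call, 9 gained a call and 3 members' values moved by more than that spread, all with library size only: miR-183-5p and miR-182-5p for CMi-EV against CPC-EV (-3.47 and -3.46) and miR-182-5p for CMm-EV against CMi-EV (-5.46). All 12 lost calls were those of miR-1271-5p and miR-335-3p, and depth limits the values of miR-96-5p and the 3p arms in CMm-EV.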
